A study of Homo sapiens with 27 samples.

Results

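MV411 cells carrying CARM1 hairpin 2 were compared with MV411 cells carrying CARM1 hairpin 1, as 3 RNA-seq libraries against 3, over all genes of the count table. These 6 libraries were chosen by their cell line and hairpin labels, out of 27 libraries in the series. Earlier results of these data were known when that choice was made. MV411 is a human acute myeloid leukaemia line of monocytic character, known for a KMT2A fusion and for a FLT3 gene with a tandem duplication. Both groups received a constitutive lentiviral short hairpin RNA against CARM1, and the 3 scramble libraries of the same line received a lentiviral scramble hairpin. RNA was collected 3 days after the hairpins, and the labels list no media supplement for MV411. The other lines of the series, SKNO1 (grown with 10 ng/mL GM-CSF) and MOLM13, received the same 2 hairpins and the same control, with 3 libraries in each group. No label says whether replicates were separate infections or portions of the same culture, so the p-values measure only the spread between these samples.

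CARM1, also called PRMT4, is an arginine methyltransferase that places asymmetric dimethyl marks on histone H3 and on coactivators, splicing factors and chromatin remodellers. It is recruited by transcription factors together with p300 and the p160 coactivators. Monocytic leukaemia cells are arrested on the way to macrophages. A pair of hairpins against the same mRNA can differ in how far they lower it and in which other transcripts they touch, and a contrast between them holds both. Which of the differences below go with the CARM1 level cannot be told apart here from other properties of the hairpins.

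In all, 2046 of 17816 genes tested, or 11.5%, passed an adjusted p of 0.05 between hairpin 2 and hairpin 1 (edgeR's quasi-likelihood test, Benjamini-Hochberg over all genes tested). Of these, 1044 (5.86% of those tested) were higher with hairpin 2 and 1002 (5.62%) were lower, 575 and 376 of them by more than 2-fold. The counts of gene lists below are to be set against these shares. The lists were chosen with earlier results of these data known, so a count above the shares describes a list and does not test it. For comparison, 3313 genes (18.6%) passed between hairpin 2 and scramble, 8.38% of those tested being higher and 10.2% lower. Between hairpin 1 and scramble 1159 genes (6.51%) passed, 2.37% being higher and 4.13% lower, in a contrast that shares libraries with both others. All hairpin 2 libraries were above all hairpin 1 libraries in 15% of genes tested and below them in 16.9%. Of the 2046 called genes 2041 were separated in this way, so a lack of overlap between the hairpins adds no support to the calls below. The number of calls between the hairpins changed with the libraries used. It was 2062 and 2105 without hairpin 2 replicates 2 and 3. It fell to 958 without hairpin 2 replicate 1. Without hairpin 1 replicates 1, 2 and 3 it was 873, 1209 and 1067. Between 95.8% and 99% of the genes called in those smaller sets were also called with all libraries. A fit with 1 library fewer also has less power, and the part of that in the losses was not tested. With same-numbered libraries taken as blocks the number was 3516.

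Totals ran from 25063577 to 39718356 expected counts in the 9 MV411 libraries. On the first principal component, which held 36.7% of the variance, the hairpin 2 libraries lay between 21.6 and 72.0, the hairpin 1 libraries between -13.7 and 4.91 and the scramble libraries between -57.3 and -20.2. Mitochondrial rRNA took 31.1% ± 1.92 of counts with hairpin 2, 32.4% ± 2.14 with hairpin 1 and 26.2% ± 1.46 with scramble (SD, n = 3 each; exact two-sided permutation p = 0.5 between the hairpins). Mitochondrially encoded mRNA took 0.692% ± 0.006 with hairpin 2, 0.533% ± 0.012 with hairpin 1 and 0.695% ± 0.010 with scramble (exact permutation p = 0.1 between the hairpins, the smallest that 3 against 3 allows; adjusted p = 0.25 over 5 such tests). All 12 markers of KMT2A-rearranged monocytic leukaemia, CD33, SPI1 and LYZ among them, were detected, with summed levels of 2058 to 2370 CPM with hairpin 2, 1414 to 1935 with hairpin 1 and 1527 to 1906 with scramble.

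**Figure D1:**
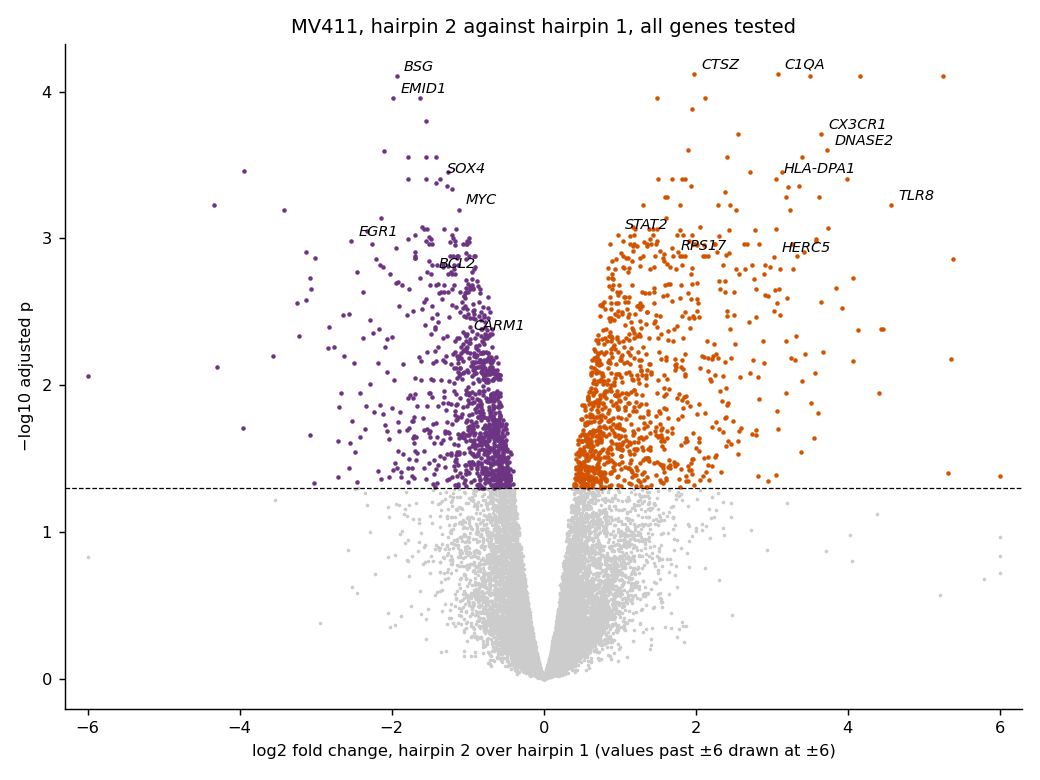
Each point is 1 of the 17816 genes tested; the x axis is the log2 fold change of hairpin 2 over hairpin 1 in MV411 and the y axis is −log10 of the adjusted p, with the dashed line at 0.05. Orange points (1044) passed and were higher with hairpin 2, purple points (1002) passed and were lower, and grey points did not pass.

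Promoters of genes from 3 of the groups that follow are shown first, because each group is known for a response element that can be looked for in the letters. The sequences are RefSeq's for GRCh38.p14, from 250 bases before to 50 bases after the start, 5′ to 3′ on the strand of the gene. Capitals mark matches on either strand to the interferon-stimulated response element, searched as GAAA, any 2 letters and GAAA, bound by STAT and IRF factors, in HERC5 and IFIT1, to the Y box CTGATTGG of class II HLA promoters, bound by NF-Y, in HLA-DRB1, and to the E box CACGTG, bound by MYC with MAX, in RRP9. IFIT1 was chosen after its values were seen.
HERC5 (chr4:88456869-88457168, plus strand): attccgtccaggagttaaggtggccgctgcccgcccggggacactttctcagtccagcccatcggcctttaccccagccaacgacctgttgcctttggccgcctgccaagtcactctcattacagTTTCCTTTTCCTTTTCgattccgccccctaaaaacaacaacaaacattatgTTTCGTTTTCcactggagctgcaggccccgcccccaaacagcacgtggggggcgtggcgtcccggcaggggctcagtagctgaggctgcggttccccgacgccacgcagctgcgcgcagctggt
IFIT1 (chr10:89392373-89392672, plus strand): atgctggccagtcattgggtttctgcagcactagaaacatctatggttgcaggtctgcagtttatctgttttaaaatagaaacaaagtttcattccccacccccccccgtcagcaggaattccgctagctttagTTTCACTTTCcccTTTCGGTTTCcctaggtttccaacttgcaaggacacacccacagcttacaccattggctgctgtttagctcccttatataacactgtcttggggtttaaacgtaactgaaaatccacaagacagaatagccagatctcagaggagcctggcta
HLA-DRB1 (chr6:32589799-32590098, minus strand): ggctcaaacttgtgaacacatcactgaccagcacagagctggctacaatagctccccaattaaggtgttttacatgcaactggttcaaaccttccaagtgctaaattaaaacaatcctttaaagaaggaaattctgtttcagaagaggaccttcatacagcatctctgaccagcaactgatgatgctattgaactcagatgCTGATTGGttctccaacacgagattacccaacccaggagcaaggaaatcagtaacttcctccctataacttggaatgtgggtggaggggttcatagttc
RRP9 (chr3:51941855-51942154, minus strand): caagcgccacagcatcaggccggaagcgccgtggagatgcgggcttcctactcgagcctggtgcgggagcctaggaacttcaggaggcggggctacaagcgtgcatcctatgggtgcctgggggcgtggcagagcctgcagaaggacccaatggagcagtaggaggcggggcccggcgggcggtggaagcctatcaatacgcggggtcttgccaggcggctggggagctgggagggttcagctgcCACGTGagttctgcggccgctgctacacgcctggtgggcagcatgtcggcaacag
In HERC5 the first 2 matches overlap, so that its 3 matches form 2 runs of capitals. The response element was in 29 of 41 promoters of interferon effector genes (70.7%), against 996 of all 27305 promoters of the table (3.65%) and 342 of the 11343 promoters of tested genes (3.02%). The Y box was in 4 of 9 class II promoters (44.4%), against 1136 of all 27305 (4.16%) and 619 of the 11343 promoters of tested genes (5.46%). The E box was in 10 of 30 promoters of ribosome biogenesis and MYC target genes (33.3%) and in 2030 of all 27305 (7.44%). Genes called lower with hairpin 2 held it in 122 of 722 promoters (16.9%), genes called higher in 75 of 786 (9.54%) and all tested genes in 1122 of 11343 (9.89%). These are counts of letters in the windows and say nothing of binding. The table holds 1 promoter a gene for part of the genes, and a window without these letters shows only that.

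CARM1 itself was lower with hairpin 2 in every library. The gene (ENSG00000142453) lies on GRCh38 chromosome 19, 10871513 to 10923070, plus strand. It stood at 2.47, 3.51 and 2.37 normalised CPM (counts scaled to a common library size by TMM, as CPM) with hairpin 2, against 5.32, 5.77 and 5.83 with hairpin 1 and 21.5, 21.2 and 22.4 with scramble, and no groups overlapped. Both hairpins lowered CARM1, and hairpin 2 lowered it further, by 2.03-fold (log2 fold change -1.02 ± 0.18, SE, adjusted p = 0.00455). The value stayed within -1.21 to -0.93 when each of the 9 libraries was left out in turn, with adjusted p up to 0.0294.

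Other arginine methyltransferases also differed between the hairpins, 5 of the 9 tested members of the family (CARM1 included) being lower with hairpin 2 and 1 higher. PRMT3, which methylates ribosomal protein S2, stood at 9.96, 8.91 and 13.2 normalised CPM with hairpin 2, against 18.4, 18.1 and 22.4 with hairpin 1 and 20.7, 15.1 and 17.1 with scramble (log2 -0.87 ± 0.19, adjusted p = 0.0125). PRMT5, the main enzyme of symmetric dimethylation, stood at 32.9, 29.9 and 40.2 with hairpin 2, against 56.8, 50.2 and 54.4 with hairpin 1 and 54.8, 42.4 and 50.1 with scramble (log2 -0.65 ± 0.15, adjusted p = 0.0184). PRMT1, the main enzyme of asymmetric dimethylation, stood at 99.98, 93.8 and 93.6 with hairpin 2, against 135, 133 and 143 with hairpin 1 and 131, 121 and 155 with scramble (log2 -0.51 ± 0.13, adjusted p = 0.0258). For these 3 enzymes every hairpin 2 library lay below every other MV411 library, and hairpin 1 and scramble libraries overlapped. PRMT7, a monomethylating enzyme, was lower too (log2 -0.58 ± 0.16, adjusted p = 0.0369). PRMT2 was the member that was higher, at 34.3, 35.2 and 37.6 with hairpin 2, against 22.6, 27.7 and 21.6 with hairpin 1 and 30.3, 30.3 and 33.5 with scramble (log2 0.58 ± 0.13, adjusted p = 0.0179). PRMT6 (-0.40 ± 0.15, adjusted p = 0.105), PRMT9 (0.11 ± 0.16, adjusted p = 0.721) and NDUFAF7, a mitochondrial relative that methylates a complex I subunit (-0.05 ± 0.23, adjusted p = 0.918), did not pass. None of the 4 tested PRMT5 cofactors passed. WDR77, the obligate partner of PRMT5, stood at -0.53 (adjusted p = 0.0852) and the adaptor RIOK1 at -0.49 (adjusted p = 0.16).

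These calls are close to the threshold. The count of lower family members was 1 without hairpin 2 replicate 1, 3 without hairpin 2 replicate 3, 2 without hairpin 1 replicate 1, 3 without hairpin 1 replicate 2 and 1 without hairpin 1 replicate 3. Over the 9 fits that left out 1 library, the log2 fold change of PRMT3 ran from -1.07 to -0.75 (adjusted p up to 0.0697), that of PRMT5 from -0.79 to -0.55 (up to 0.0907) and that of PRMT1 from -0.55 to -0.49 (up to 0.105). PRMT7 ran from -0.68 to -0.48 (up to 0.118) and PRMT2, whose call was lost without hairpin 2 replicate 1 and without hairpin 1 replicates 1 and 3, from 0.50 to 0.69 (up to 0.106). Among partners and substrates of CARM1, 1 of 17 was higher and 0 lower, which is close to the shares of all genes tested (5.86% higher, 5.62% lower). That gene was NCOA3, a p160 coactivator that recruits CARM1 (0.55 ± 0.14, adjusted p = 0.0303), whose call was lost without hairpin 2 replicates 1 or 3, any hairpin 1 replicate or scramble replicate 3 (0.39 to 0.66; adjusted p up to 0.144).

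**Figure D2:**
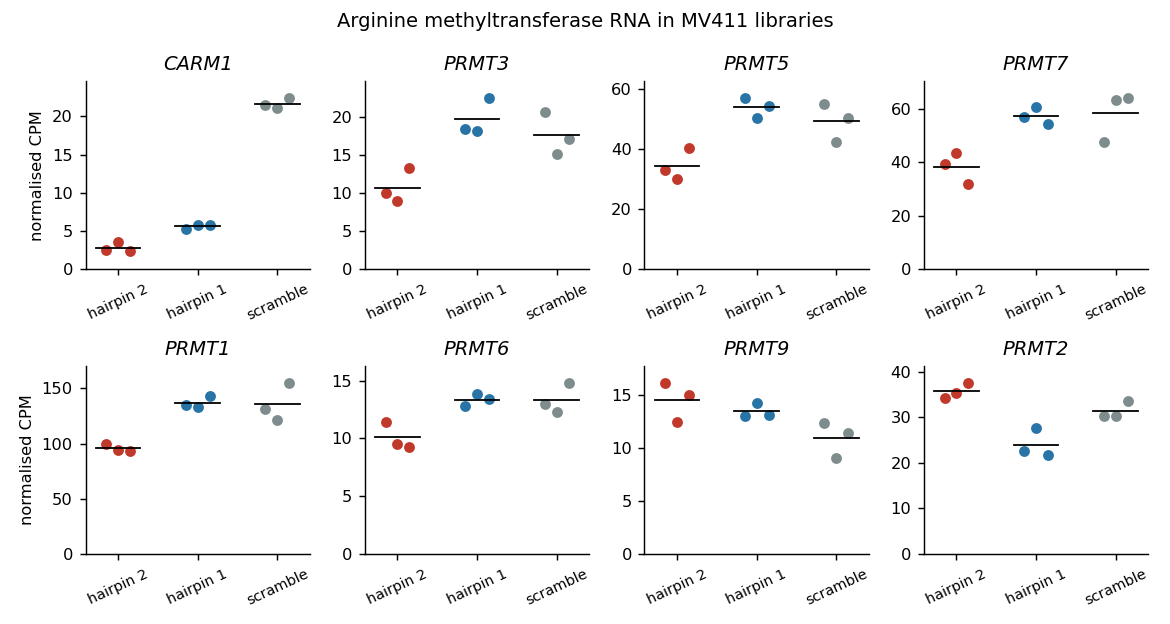
Points are single MV411 libraries and black lines are group means; the y axes are normalised CPM from 0. CARM1 lies at 2.37 to 3.51 with hairpin 2, at 5.32 to 5.83 with hairpin 1 and above 21 with scramble, while PRMT3, PRMT5 and PRMT1 are low with hairpin 2 alone.

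Genes of class II antigen presentation were higher with hairpin 2, in 10 of the 11 members tested, with none lower. The median log2 fold change of the list was 2.02, against 0.01 for all genes tested. HLA-DPA1, the alpha chain of HLA-DP, stood at 61.4, 81.4 and 38.7 normalised CPM with hairpin 2, against 6.65, 9.89 and 5.15 with hairpin 1 and 5.95, 6.91 and 8.55 with scramble (8.35-fold; log2 3.06 ± 0.31, adjusted p = 0.000392). Its partner chain HLA-DPB1 stood at 14.7, 20.4 and 7.02 with hairpin 2, against 1.30, 2.54 and 1.02 with hairpin 1 and 1.06, 1.72 and 1.86 with scramble (log2 3.11 ± 0.44, adjusted p = 0.00162). HLA-DMB, a chain of the peptide exchanger HLA-DM, rose by 2.78 ± 0.33 (adjusted p = 0.000878). HLA-DRB1, whose Y box is printed above, stood at 56.3, 64.5 and 37.5 with hairpin 2, against 14.7, 20.7 and 9.69 with hairpin 1 and 10.4, 10.97 and 11.7 with scramble (log2 1.81 ± 0.27, adjusted p = 0.00208) and shares its sequence with the near-copy HLA-DRB5, so the counts of both are uncertain. In each of these genes all hairpin 2 libraries were above all other MV411 libraries, and hairpin 1 overlapped scramble. The list median was 2.38 for hairpin 2 against scramble and 0.45 for hairpin 1 against scramble. CIITA, the master coactivator of class II genes, had a log2 value of 1.09 and did not pass (adjusted p = 0.151). The invariant chain CD74 passed at 0.84 (adjusted p = 0.0271), the lowest log2 value of the list. The other members that rose, HLA-DRA, HLA-DRB5, HLA-DMA, HLA-DQA1 and HLA-DQB1, had log2 values of 1.24 to 2.41. B cells carry class II too, and 6 B cell markers summed to 3.58 to 6.06 CPM with hairpin 2, 1.65 to 2.17 with hairpin 1 and 1.74 to 2.58 with scramble, with CD79B called higher (log2 3.14). Their part in the class II result was not tested. In bulk RNA, fewer cells of a kind and less RNA in each cell cannot be told apart, here and in all groups below.

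Interferon effector genes were higher with hairpin 2 in 23 of 50 members tested and lower in 1, with a median log2 fold change of 1.21. HERC5, the ligase that attaches ISG15 to proteins, stood at 28.6, 11.1 and 14.98 normalised CPM with hairpin 2, against 2.09, 1.47 and 3.10 with hairpin 1 and 3.42, 1.72 and 2.24 with scramble (8.20-fold; log2 3.03 ± 0.41, adjusted p = 0.00134). SIGLEC1, a sialic acid receptor of macrophages that interferon induces, stood at 29.2, 34.7 and 12.5 with hairpin 2, against 0.937, 1.59 and 5.45 with hairpin 1 and 0.623, 1.69 and 1.06 with scramble (log2 3.26 ± 0.60, adjusted p = 0.00653). IFIT2, which binds foreign RNA, stood at 31.2, 6.36 and 17.9 with hairpin 2, against 1.24, 1.12 and 5.62 with hairpin 1 and 0.716, 0.669 and 0.362 with scramble (log2 2.79 ± 0.66, adjusted p = 0.0203). These genes are among the 12 largest rises described below, a set that was limited to genes without overlap of the hairpins. Hairpin 1 replicate 3 was the highest hairpin 1 library in each. SAMD9 (1.54 ± 0.26, adjusted p = 0.00451) and DDX60L (1.45 ± 0.24, adjusted p = 0.00376), antiviral genes of the same response, rose too, as did the cytidine deaminase APOBEC3G (0.94 ± 0.17, adjusted p = 0.00565). IFIT1 had 25.9, 6.25 and 12.9 with hairpin 2, against 0.272, 0.951 and 3.05 with hairpin 1 and 0.374, 0.535 and 0.483 with scramble (log2 3.39 ± 0.68, adjusted p = 0.00942). IFITM2, an entry restriction factor with near-copies in its family, was the member that fell (-0.49 ± 0.12, adjusted p = 0.0199).

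The interferon genes varied among libraries of the same group. The mean log2 level of the 50 genes, relative to the 9-library mean, was 1.55, 0.63 and 1.15 in the hairpin 2 libraries, -0.81, -0.48 and 0.56 in the hairpin 1 libraries and -1.01, -0.82 and -0.78 in the scramble libraries. Hairpin 1 replicate 3 thus lay close to hairpin 2 replicate 2. The count of higher members was 9 without hairpin 2 replicate 1, 8 without hairpin 1 replicate 1 and 10 without hairpin 1 replicate 2. It was 37 with no filter on low counts. IFIT2 lost its call without hairpin 2 replicate 1 and without hairpin 1 replicates 1 or 2 (2.19 to 3.96; adjusted p up to 0.0917), and IFITM2 without hairpin 2 replicate 1 or any hairpin 1 replicate (-0.54 to -0.46; up to 0.104).

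Upstream of those effectors, 5 of 25 genes of interferon signalling and RNA sensing were higher and 2 lower (median 0.17). TLR8, an endosomal receptor for single-stranded RNA, stood at 5.28, 4.29 and 2.60 normalised CPM with hairpin 2, against 0.181, 0.231 and 0.0879 with hairpin 1 and 0.156, 0.0446 and 0.241 with scramble (log2 4.57 ± 0.50, adjusted p = 0.000594). Its relative TLR7 stood at 2.21, 1.70 and 1.66 with hairpin 2, against 0.121, 0.115 and 0.205 with hairpin 1 and 0.218, 0.446 and 0.386 with scramble (log2 3.62 ± 0.38, adjusted p = 0.000527). Outside hairpin 2 both receptors were at most at 0.446 CPM, so low that the size of their fold changes is uncertain. They were well counted with hairpin 2 alone, so the lack of overlap adds no support. STAT2, the factor that carries the interferon signal to the nucleus, stood at 224, 215 and 219.5 with hairpin 2, against 105, 110.4 and 118 with hairpin 1 and 105, 113 and 117 with scramble (log2 0.98 ± 0.12, adjusted p = 0.000947). DHX58, a helper of RNA sensors, rose by 0.96 ± 0.20 (adjusted p = 0.0109), a call that was lost without hairpin 1 replicate 1 (adjusted p = 0.0659). IRF9, the partner of STAT2 and chosen after its values were seen, was the fifth at 0.89 ± 0.24 (adjusted p = 0.039). The list's lower members were SOCS1, a feedback inhibitor of JAK kinases (-1.32 ± 0.32, adjusted p = 0.0236), and MB21D1, the DNA sensor cGAS (-0.65 ± 0.14, adjusted p = 0.0117). Both lower calls were lost without hairpin 2 replicate 1 and without hairpin 1 replicates 1 or 3, with SOCS1 at -1.51 to -1.10 (adjusted p up to 0.101) and MB21D1 at -0.76 to -0.58 (up to 0.0697). The list's higher count was 3 without hairpin 1 replicate 1.

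Genes of monocytes and macrophages were higher in 18 of 34 members tested and lower in none (median 0.69). CYBB, the catalytic subunit of the phagocyte oxidase, stood at 99.3, 58.5 and 60.9 normalised CPM with hairpin 2, against 10.3, 13.00 and 4.31 with hairpin 1 and 15.1, 7.56 and 7.31 with scramble (7.91-fold; log2 2.98 ± 0.41, adjusted p = 0.00158). ITGAM, the integrin CD11b of mature myeloid cells, stood at 22.6, 19.6 and 13.04 with hairpin 2, against 2.90, 3.37 and 1.99 with hairpin 1 and 3.36, 2.27 and 1.04 with scramble (log2 2.74 ± 0.38, adjusted p = 0.00153). ITGAX, the integrin CD11c, rose by 1.84 ± 0.22 (adjusted p = 0.000947). The complement protein C3 stood at 79.5, 105 and 50.4 with hairpin 2, against 15.03, 20.4 and 18.98 with hairpin 1 and 4.02, 4.84 and 6.71 with scramble (log2 2.11 ± 0.27, adjusted p = 0.00111). For C3 the 3 groups were apart from each other, in that order. FCGR2B, the inhibitory Fc receptor, rose by 3.74 ± 0.43 (adjusted p = 0.000852), with reads that the near-copy FCGR2C may share. None of these 5 calls was lost when any 1 library was left out. CD14, a coreceptor for bacterial lipopolysaccharide, stood at 3.00, 2.40 and 2.23 with hairpin 2, against 0.302, 0.173 and 0.615 with hairpin 1 and 0.311, 0.357 and 0.579 with scramble (log2 2.80 ± 0.42, adjusted p = 0.00223). CD86, a costimulator of T cells, stood at 5.57, 4.99 and 10.1 with hairpin 2, against 0.726, 0.778 and 1.52 with hairpin 1 and 0.654, 1.29 and 0.676 with scramble (log2 2.77 ± 0.40, adjusted p = 0.0019). These 2 list members were chosen after their values were seen, and the other 11 that rose, among them APOE and ALOX5, had log2 values of 0.48 to 2.46. Among members that did not pass, the growth factor receptor CSF1R had a log2 of 0.10 (adjusted p = 0.858). In the leukaemia marker list, which also holds ITGAM, CSF3R, the receptor for G-CSF, was higher (0.69 ± 0.15, adjusted p = 0.0131) and HOXA10 lower. The call of CSF3R was lost without hairpin 2 replicate 1 and without hairpin 1 replicates 1 or 3 (0.59 to 0.80; adjusted p up to 0.0761).

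DNASE2, CX3CR1 and C1QA were among the 12 genes with the largest rise among well-detected genes. DNASE2, the acid DNase of lysosomes, stood at 46.05, 45.6 and 31.4 normalised CPM with hairpin 2, against 2.36, 1.90 and 5.01 with hairpin 1 and 4.33, 3.79 and 3.28 with scramble (13.3-fold; log2 3.73 ± 0.33, adjusted p = 0.000251). CX3CR1, the fractalkine receptor of monocytes, stood at 21.6, 28.9 and 29.4 with hairpin 2, against 1.33, 2.28 and 2.72 with hairpin 1 and 4.14, 5.11 and 8.04 with scramble (log2 3.65 ± 0.31, adjusted p = 0.000196). In CX3CR1 hairpin 1 lay below scramble and hairpin 2 above it. C1QA, a chain of the complement recognition protein C1q, stood at 12.3, 12.3 and 10.7 with hairpin 2, against 1.30, 1.47 and 1.41 with hairpin 1 and 0.841, 0.557 and 0.676 with scramble (log2 3.08 ± 0.20, adjusted p = 7.62e-05, the smallest in the fit together with that of CTSZ). LRP1, an endocytic receptor (3.32 ± 0.57, adjusted p = 0.00465), ABCG1, which exports cholesterol (3.27 ± 0.41, adjusted p = 0.00109), and IGSF6, an immunoglobulin-like receptor (3.21 ± 0.33, adjusted p = 0.000449), completed the set with CYBB, HERC5, IFIT2, SIGLEC1 and both HLA-DP chains. LRP1 was uneven within groups, at 38.1, 72.1 and 16.2 with hairpin 2 and 3.11, 7.38 and 2.14 with hairpin 1, against 3.92, 7.25 and 3.84 with scramble. The call of IFIT2 was the only one of the 12 lost when a library was left out.

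**Figure D3:**
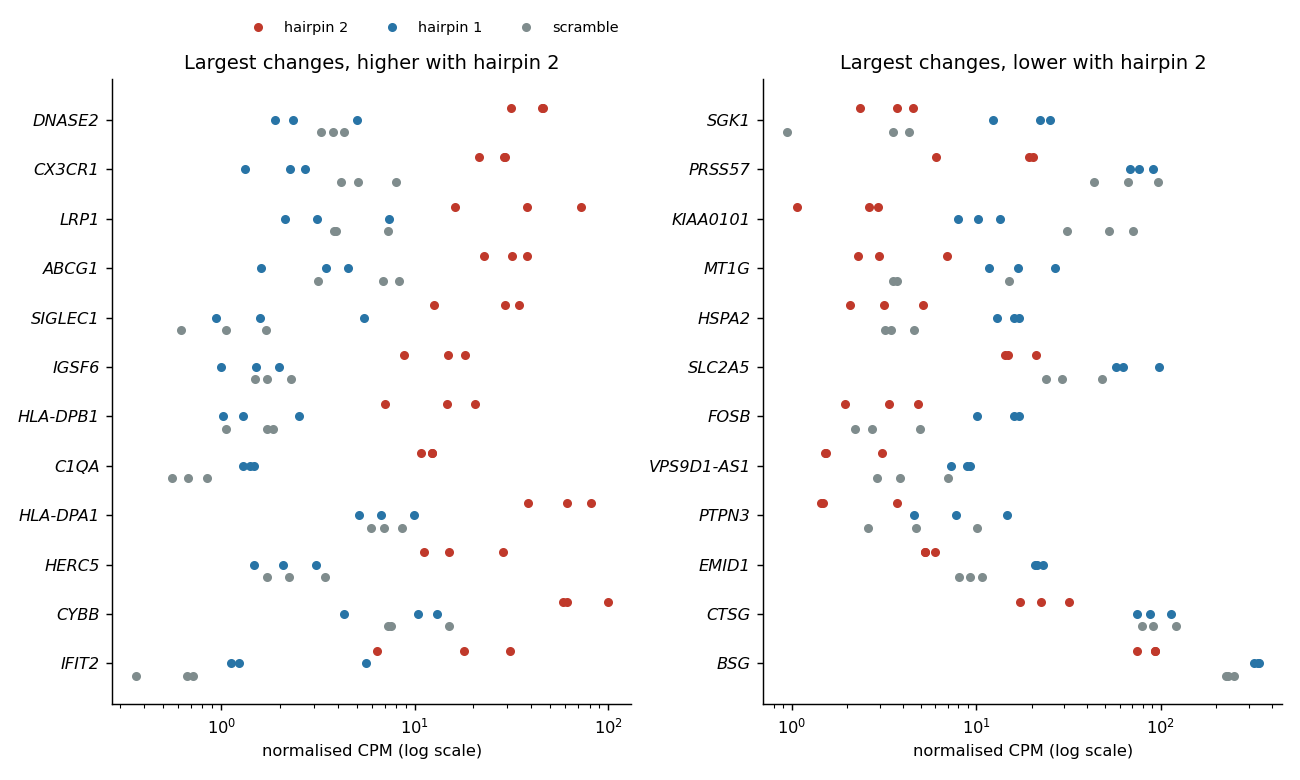
Points are single MV411 libraries on a log axis of normalised CPM, with hairpin 2 in red, hairpin 1 in blue and scramble in grey, for the 12 genes with the largest rise (left) and the 12 with the largest fall (right) among genes past the threshold with a mean log2 CPM of at least 2 and no overlap of the hairpins. DNASE2 lies at 31.4 to 46.0 with hairpin 2, against 1.90 to 5.01 with hairpin 1, and several genes on the right, SGK1, HSPA2 and FOSB among them, have scramble libraries on the side of hairpin 2.

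In the list of lysosomal and autophagy genes 13 of 34 tested members rose and none fell (median 0.53). CTSZ, a lysosomal carboxypeptidase, stood at 165, 155 and 156 normalised CPM with hairpin 2, against 38.4, 43.4 and 38.4 with hairpin 1 and 71.7, 59.6 and 70.2 with scramble (3.96-fold; log2 1.98 ± 0.13, adjusted p = 7.62e-05). Here hairpin 1 was below scramble and hairpin 2 above it. CTSB, a lysosomal protease, stood at 395, 382 and 381 with hairpin 2, against 175, 160.3 and 193 with hairpin 1 and 122, 130.5 and 153 with scramble (log2 1.13 ± 0.14, adjusted p = 0.000962). CTSL, a protease of the same family (3.06 ± 0.36, adjusted p = 0.000866), rose as well, and these 3 calls held without any 1 library. The count of higher members was 7 without hairpin 2 replicate 1, 8 without hairpin 1 replicate 1 and 6 without hairpin 1 replicate 2 or replicate 3.

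Inflammatory genes of the NF-kB list were higher in 5 of 23 members and lower in none (median 0.23). CXCL8, a neutrophil chemokine, stood at 8.05, 4.62 and 6.89 normalised CPM with hairpin 2, against 0.998, 1.61 and 1.35 with hairpin 1 and 0.685, 0.959 and 0.7 with scramble (log2 2.30 ± 0.28, adjusted p = 0.000962), and its call held without any 1 library. The chemokines CCL2 (1.89 ± 0.41, adjusted p = 0.0131) and CCL3 (1.69 ± 0.40, adjusted p = 0.0211) and the cytokine IL1B (1.30 ± 0.29, adjusted p = 0.0164) passed with all libraries, as did the NF-kB regulator NFKBIZ (0.90 ± 0.23, adjusted p = 0.0295), which was chosen after its values were seen. CCL2 lost its call without hairpin 2 replicate 1 or hairpin 1 replicate 1 (1.57 to 2.29; adjusted p up to 0.0647). CCL3 and IL1B lost theirs without hairpin 2 replicate 1 and without hairpin 1 replicates 2 or 3, at 1.30 to 2.01 (up to 0.104) and 0.95 to 1.48 (up to 0.0784). The count of the list was then 1 without hairpin 2 replicate 1, 3 without hairpin 1 replicate 1 or 2 and 2 without hairpin 1 replicate 3. In the class I list, 3 of 18 genes were higher and 1 lower (median 0.31). HLA-E, a ligand of natural killer cell receptors, stood at 302, 310.0 and 294 with hairpin 2, against 163, 186 and 182 with hairpin 1 and 187, 181 and 201 with scramble (log2 0.77 ± 0.12, adjusted p = 0.00289). PSME1, a proteasome activator subunit, was the member that fell, to 42.4, 36.4 and 58.2 with hairpin 2, against 91.8, 86.1 and 101 with hairpin 1 and 89.9, 70.2 and 86.1 with scramble (log2 -1.02 ± 0.18, adjusted p = 0.005). The immunoproteasome subunit PSMB9 (0.86 ± 0.19, adjusted p = 0.0149) and the class I coactivator NLRC5 (0.67 ± 0.17, adjusted p = 0.0283) also passed. PSMB9 lost its call without hairpin 2 replicate 1 or hairpin 1 replicates 1 or 3 (0.75 to 1.00; adjusted p up to 0.087), and NLRC5 without hairpin 2 replicate 2 or any hairpin 1 replicate (0.46 to 0.77; up to 0.104). The count of higher class I genes was 1 without hairpin 1 replicate 1 or replicate 3.

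Regulators of leukaemia self-renewal were lower with hairpin 2 in 5 of 19 members tested and higher in none (median -0.27). MYC, the growth-promoting transcription factor, fell to 105, 102 and 114 normalised CPM with hairpin 2, against 221, 228 and 247 with hairpin 1 and 236, 239 and 262 with scramble (2.17-fold; log2 -1.12 ± 0.12, adjusted p = 0.000638). SOX4, a stem cell factor, fell to 14.2, 13.6 and 15.2 with hairpin 2, against 38.5, 39.2 and 33.2 with hairpin 1 and 37.02, 30.4 and 35.8 with scramble (log2 -1.36 ± 0.13, adjusted p = 0.000392). In both genes the hairpin 1 and scramble libraries overlapped and hairpin 2 lay below all of them. BCL2, which blocks apoptosis, fell to 35.9, 39.2 and 60.5 with hairpin 2, against 102, 126 and 151 with hairpin 1 and 201, 188 and 212 with scramble (log2 -1.48 ± 0.21, adjusted p = 0.00174). CDK6, a G1 kinase, fell to 249, 237 and 262 with hairpin 2, against 484, 508 and 529 with hairpin 1 and 446, 327 and 319.6 with scramble (log2 -1.02 ± 0.15, adjusted p = 0.00232). The fifth was HOXA10, a homeobox gene of the leukaemic programme (-0.82 ± 0.16, adjusted p = 0.00747). Its neighbour HOXA9 (-0.27, adjusted p = 0.312), its cofactor MEIS1 (0.38, adjusted p = 0.0722) and MYB (0.04, adjusted p = 0.918) did not pass. None of the 5 calls was lost when any 1 library was left out.

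Ribosome biogenesis and MYC target genes were lower in 17 of 35 members tested and higher in none (median -0.63). In 27 of the 35, every hairpin 2 library lay below every hairpin 1 library, against 16.9% of all genes tested. POLR1A, the largest subunit of RNA polymerase I, fell to 36.7, 52.2 and 49.04 normalised CPM with hairpin 2, against 105, 90.4 and 104 with hairpin 1 and 89.02, 86.6 and 90.2 with scramble (2.17-fold; log2 -1.12 ± 0.15, adjusted p = 0.00132). RRP9, a protein of the U3 processing particle whose E box is printed above, fell to 10.1, 10.7 and 10.5 with hairpin 2, against 21.6, 18.9 and 22.6 with hairpin 1 and 20.7, 19.2 and 20.3 with scramble (log2 -1.01 ± 0.13, adjusted p = 0.00109). The nucleolar protein MYBBP1A (-0.998 ± 0.16, adjusted p = 0.00327) and NHP2, a core protein of pseudouridylation particles (-0.73 ± 0.12, adjusted p = 0.00349), fell as well. The other 13 that fell, among them the processing factors BOP1, NOP56, DKC1 and DDX18, had log2 values of -1.01 to -0.48. The calls of the 4 genes named first held without any 1 library. The list median was -0.65 for hairpin 2 against scramble and -0.05 for hairpin 1 against scramble. The count of lower members was 9 without hairpin 2 replicate 1, 8 without hairpin 1 replicate 1 and 9 without hairpin 1 replicate 3. Of 76 cytosolic ribosomal protein genes 1 was called higher and 0 lower (median -0.16).

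**Figure D4:**
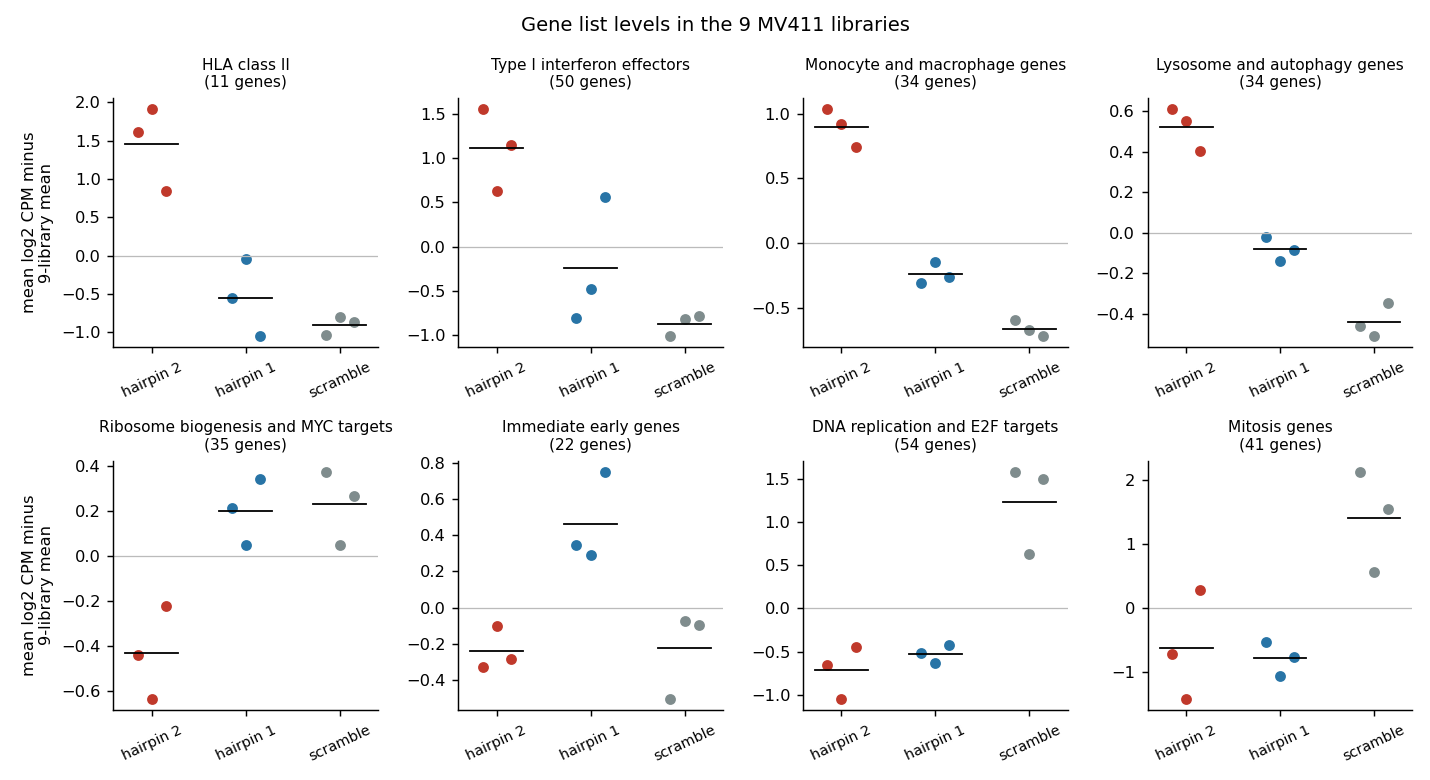
Points are single MV411 libraries and black lines are group means; the y axis is the mean over a list's tested genes of log2 CPM minus the 9-library mean, with the number of genes in each title. HLA class II, interferon, monocyte and lysosome genes are highest with hairpin 2, ribosome biogenesis genes are lowest with it, immediate early genes are highest with hairpin 1, and replication and mitosis genes are low with both hairpins relative to scramble.

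Immediate early genes, which cells switch on within minutes of a stimulus, were lower with hairpin 2 in 10 of 22 members tested and higher in none (median -0.72). EGR1, a zinc finger factor of this class, fell to 0.858, 0.962 and 0.499 normalised CPM with hairpin 2, against 4.08, 3.46 and 5.77 with hairpin 1 and 0.903, 1.29 and 1.18 with scramble (5.79-fold; log2 -2.53 ± 0.31, adjusted p = 0.00104). FOSB, a component of AP-1, fell to 1.95, 3.37 and 4.81 with hairpin 2, against 16.1, 10.1 and 17.02 with hairpin 1 and 2.21, 2.72 and 4.95 with scramble (log2 -2.08 ± 0.37, adjusted p = 0.0055). In these genes it was hairpin 1 that stood apart, above both other groups, and the ranges of hairpin 2 and scramble overlapped. KLF2, a quiescence factor, showed the same with 0.594, 0.629 and 0.683 with hairpin 2, against 1.90, 2.16 and 3.10 with hairpin 1 and 0.467, 0.803 and 0.628 with scramble (log2 -1.90 ± 0.30, adjusted p = 0.00287). The phosphatase gene DUSP2 had a log2 of -1.53 ± 0.22 (adjusted p = 0.0017) and FOSL1, another AP-1 component, of -1.24 ± 0.20 (adjusted p = 0.00345), and in both hairpin 2 lay below scramble and hairpin 1 above it. The list median was -0.03 for hairpin 2 against scramble and 0.55 for hairpin 1 against scramble. The count of lower members was 6 without hairpin 2 replicate 1 or 3 and without hairpin 1 replicate 1 or 3, while the calls of the 5 genes named held without any 1 library.

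Among the 12 genes with the largest fall, the place of scramble differed from gene to gene. SGK1, a kinase induced by serum and glucocorticoids, stood at 3.73, 4.55 and 2.34 normalised CPM with hairpin 2, against 24.97, 12.3 and 22.1 with hairpin 1 and 4.30, 3.52 and 0.941 with scramble (5.62-fold; log2 -2.49 ± 0.47, adjusted p = 0.00703). HSPA2, of the HSP70 family, stood at 3.17, 5.14 and 2.08 with hairpin 2, against 15.9, 12.9 and 17.05 with hairpin 1 and 3.21, 4.61 and 3.45 with scramble (log2 -2.15 ± 0.30, adjusted p = 0.00153). SGK1 and HSPA2 were high with hairpin 1 alone. BSG, the surface protein basigin that escorts lactate transporters, stood at 92.96, 92.9 and 74.4 with hairpin 2, against 337, 318 and 339 with hairpin 1 and 224, 229.5 and 249 with scramble (log2 -1.93 ± 0.14, adjusted p = 7.84e-05). EMID1, a secreted protein gene, stood at 5.25, 5.25 and 5.97 with hairpin 2, against 22.9, 20.8 and 21.3 with hairpin 1 and 8.10, 10.8 and 9.25 with scramble (log2 -1.98 ± 0.15, adjusted p = 0.000111). BSG and EMID1 had the smallest SEs of the 12, with hairpin 2 below scramble, hairpin 1 above it and no overlap of the 3 groups. The fructose transporter SLC2A5 (-2.11 ± 0.29, adjusted p = 0.00158) and VPS9D1-AS1, an antisense RNA whose reads may be shared with its partner gene (-2.07 ± 0.36, adjusted p = 0.00488), fell too. The metallothionein MT1G (-2.18 ± 0.60, adjusted p = 0.0385), which has close copies, and the phosphatase PTPN3 (-2.03 ± 0.57, adjusted p = 0.0425) were uneven. MT1G lost its call without hairpin 2 replicates 2 or 3 or any hairpin 1 replicate (-2.82 to -1.83; adjusted p up to 0.143). PTPN3 lost it without hairpin 2 replicates 2 or 3, hairpin 1 replicates 1 or 2 or scramble replicate 2 (-2.62 to -1.49; up to 0.177), and with limma-voom (adjusted p = 0.0569).

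PRSS57 and CTSG were also among them. PRSS57, a serine protease of neutrophil granules, fell to 20.4, 19.2 and 6.02 normalised CPM with hairpin 2, against 76.4, 91.1 and 68.3 with hairpin 1 and 43.2, 96.9 and 66.6 with scramble (log2 -2.38 ± 0.41, adjusted p = 0.00478). CTSG, the granule protease cathepsin G, fell to 22.3, 17.3 and 31.8 with hairpin 2, against 87.1, 74.3 and 113 with hairpin 1 and 120.4, 79.1 and 90.6 with scramble (log2 -1.94 ± 0.25, adjusted p = 0.00117). In the primary granule list, which holds CTSG but not PRSS57, 3 of 12 genes were lower and 1 higher (median -0.41). The other lower members were CLEC11A, a growth factor of haematopoietic precursors (-1.69 ± 0.22, adjusted p = 0.00125), and MS4A3, a membrane protein of granulocyte precursors (-0.82 ± 0.18, adjusted p = 0.0134), whose call was lost without hairpin 2 replicate 1 or hairpin 1 replicate 2 (-0.97 to -0.70; up to 0.07). The granule enzyme MPO had -0.22 (adjusted p = 0.625) and ELANE -0.30 (adjusted p = 0.61). The higher member, CAMP, which encodes an antimicrobial peptide, had 0.33, 0.296 and 0.552 with hairpin 2, against 0.0605, 0 and 0.0293 with hairpin 1 and 0.0311, 0.0669 and 0.193 with scramble (adjusted p = 0.0154), levels too low for a fold change to be read. Its call was lost without hairpin 1 replicates 2 or 3 (adjusted p up to 0.0677), and DESeq2 gave it no adjusted p.

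Few genes of the cell cycle passed between the hairpins. Of 54 DNA replication and E2F target genes, 5 were lower and 0 higher (median -0.06), of 41 mitosis genes none passed (median 0.37) and of 54 replication-dependent histone genes none passed (median 0.05). Relative to scramble the medians were -1.94 for hairpin 2 and -1.91 for hairpin 1 in the replication list, and -2.01 for hairpin 2 and -2.44 for hairpin 1 in the mitosis list. The replication member that moved furthest was KIAA0101, a binding partner of the PCNA clamp, at 2.61, 1.07 and 2.94 normalised CPM with hairpin 2, against 10.2, 7.99 and 13.5 with hairpin 1 and 70.8, 30.9 and 52.3 with scramble (log2 -2.24 ± 0.38, adjusted p = 0.0044). POLE, the leading strand polymerase, stood at 12.9, 17.01 and 14.7 with hairpin 2, against 28.2, 24.5 and 25.1 with hairpin 1 and 62.5, 46.4 and 59.96 with scramble (log2 -0.80 ± 0.16, adjusted p = 0.00838). In both genes hairpin 2 was the lowest group and scramble the highest, without overlap of the 3 groups. The medians of the whole list against scramble, given above, were by contrast nearly the same for both hairpins. The dUTPase DUT (-0.83 ± 0.19, adjusted p = 0.0163) and the polymerase subunit POLD2 (-0.54 ± 0.14, adjusted p = 0.0285) also passed, and so did UHRF1, which binds hemimethylated DNA and was chosen after its values were seen (-0.70 ± 0.19, adjusted p = 0.0351). The count of the list was 1 without hairpin 2 replicate 1 or hairpin 1 replicate 1 and 2 without hairpin 1 replicate 2 or 3. With 1 library left out POLE ranged over -0.90 to -0.71 (adjusted p up to 0.0519), DUT over -0.95 to -0.73 (up to 0.0754) and POLD2 over -0.60 to -0.49 (up to 0.134). CDC20, an activator of anaphase, had 0.86 ± 0.44 (adjusted p = 0.253), and INCENP, a scaffold of the chromosomal passenger complex, -0.64 ± 0.22 (adjusted p = 0.0873). CDC20 was uneven with hairpin 2, at 6.47, 5.40 and 16.4. The histone genes HIST1H2AD (-1.08, adjusted p = 0.11) and HIST1H4K (-1.36, adjusted p = 0.162) had the smallest p-values of their list, in which copies are nearly identical. No gene of the 15 cell cycle inhibitors passed, RBL2 (0.48, adjusted p = 0.0578) and TOB2 (0.35, adjusted p = 0.0921) being closest. An unadjusted p under 0.05 was seen for 4593 of all genes tested.

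In the BCL2 family, which sets the threshold of apoptosis, 4 of 13 genes were lower and 1 higher (median 0.13). Besides BCL2, the lower genes were the death promoters PMAIP1 (-1.13 ± 0.25, adjusted p = 0.0164), BCL2L11 (-0.66 ± 0.13, adjusted p = 0.008) and BIK (-0.75 ± 0.21, adjusted p = 0.0391). BAK1, a pore-forming death effector, was higher, at 19.2, 18.1 and 19.7 normalised CPM with hairpin 2, against 11.7, 11.3 and 11.7 with hairpin 1 and 18.8, 15.9 and 17.4 with scramble (log2 0.72 ± 0.13, adjusted p = 0.00493). BCL2L11, which encodes BIM, stood at 17.5, 18.1 and 15.6 with hairpin 2, against 27.9, 24.3 and 28.6 with hairpin 1 and 17.3, 17.5 and 16.1 with scramble. In BAK1 hairpin 1 was the low group and in BCL2L11 it was the high group, with hairpin 2 near scramble in both. PMAIP1 lost its call without hairpin 2 replicate 1 or hairpin 1 replicates 1 or 3 (-1.47 to -0.93; adjusted p up to 0.0828), and BIK without hairpin 2 replicates 1 or 3, any hairpin 1 replicate or scramble replicate 3 (-0.89 to -0.56; up to 0.145). The lower count was 2 without hairpin 2 replicate 1 or hairpin 1 replicates 1 or 3. Of 31 p53 targets, 3 were higher and 2 lower (median -0.06), counts not far from the shares of all genes tested (5.86% higher, 5.62% lower). The splicing and growth regulator ZMAT3 (1.11 ± 0.18, adjusted p = 0.00343) and the tetraspanin CD82 (0.69 ± 0.13, adjusted p = 0.0064) rose and held without any 1 library. TP53I3 (1.13 ± 0.29, adjusted p = 0.0295; up to 0.125) and PLK2 (-0.93 ± 0.24, adjusted p = 0.0295; up to 0.101), a kinase, lost their calls without hairpin 2 replicate 1 or any hairpin 1 replicate, and PLK2 also without hairpin 2 replicates 2 or 3.

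Stress and metabolic lists gave mixed counts. Cytosolic chaperones were lower in 3 of 20 members (median -0.34), with HSPA1B, an inducible HSP70 gene with the near-copy HSPA1A, at 12.4, 22.9 and 10.6 normalised CPM with hairpin 2, against 43.1, 47.05 and 52.6 with hairpin 1 and 11.3, 22.5 and 19.5 with scramble (log2 -1.64 ± 0.30, adjusted p = 0.0064). Hairpin 1 was again the group apart. HSPB1 (-0.65 ± 0.17, adjusted p = 0.0332) and HSPE1 (-0.71 ± 0.19, adjusted p = 0.0338), a small heat shock protein and a mitochondrial cochaperonin, also passed. HSPB1 lost its call without hairpin 2 replicates 2 or 3, any hairpin 1 replicate or scramble replicate 3 (adjusted p up to 0.11). HSPE1 lost it without hairpin 2 replicates 1 or 2, any hairpin 1 replicate or scramble replicate 3 (up to 0.13), and the count was 1 without any 1 hairpin 1 replicate or scramble replicate 3. In the endoplasmic reticulum list 4 of 23 genes were higher and 1 lower (median 0.26). The mannosidase-like EDEM1 fell to 62.6, 49.5 and 69.5 with hairpin 2, against 137, 122 and 153 with hairpin 1 and 171, 134 and 166 with scramble (log2 -1.18 ± 0.17, adjusted p = 0.00162). The chaperones HSPA5 (0.81 ± 0.18, adjusted p = 0.0142) and HSP90B1 (1.01 ± 0.28, adjusted p = 0.0373), HERPUD1 (0.69 ± 0.17, adjusted p = 0.0242) and CRELD2 (0.64 ± 0.17, adjusted p = 0.038) passed with all libraries. None of these 4 passed without hairpin 2 replicate 1 or without hairpin 1 replicates 1 or 2, and the count was 1 without hairpin 2 replicate 3 and 7 without hairpin 2 replicate 2. Adjusted p-values reached 0.0854 for HSPA5, 0.152 for HSP90B1, 0.127 for HERPUD1 and 0.151 for CRELD2.

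Sterol and fatty acid synthesis genes were higher in 7 of 31 members and lower in none (median 0.30). FADS1, a fatty acid desaturase, stood at 67.3, 78.3 and 141 normalised CPM with hairpin 2, against 22.9, 28.6 and 47.3 with hairpin 1 and 91.7, 84.2 and 160.1 with scramble (log2 1.54 ± 0.35, adjusted p = 0.0184). The squalene synthase FDFT1 stood at 128, 125 and 134 with hairpin 2, against 79.4, 75.4 and 82.4 with hairpin 1 and 156, 115 and 169 with scramble (log2 0.71 ± 0.15, adjusted p = 0.0128). In both, hairpin 1 lay below scramble, while hairpin 2 overlapped it. LSS, lanosterol synthase (0.72 ± 0.16, adjusted p = 0.0152), passed as well. The list's count was 0 without hairpin 1 replicate 1 or 2 and 4 without hairpin 2 replicate 1 or 3. Adjusted p-values with 1 library left out reached 0.09 for FADS1, 0.0712 for FDFT1 and 0.0743 for LSS.

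Among amino acid genes 2 of 29 in the ATF4 list were lower (median -0.33), close to the 5.62% of all genes tested. They were the transporters SLC7A5 (-0.94 ± 0.20, adjusted p = 0.0132) and SLC7A1 (-0.80 ± 0.17, adjusted p = 0.0109). SLC7A5, a carrier of large neutral amino acids, had 39.9, 45.4 and 48.8 normalised CPM with hairpin 2, against 66.2, 73.3 and 117 with hairpin 1 and 151, 155 and 173 with scramble. The cationic carrier SLC7A1 had 29.6, 42.6 and 37.3 with hairpin 2, against 56.8, 59.2 and 74.9 with hairpin 1 and 104, 86.9 and 96.5 with scramble. In both genes hairpin 1 lay between hairpin 2 and scramble. Without hairpin 2 replicate 1 neither passed (0.0735 for SLC7A5, 0.0589 for SLC7A1), and SLC7A1 did not pass without hairpin 1 replicate 3 either. Of 20 tRNA synthetases 2 were lower, the subunits FARSA (-0.90 ± 0.13, adjusted p = 0.00158) and FARSB (-0.87 ± 0.23, adjusted p = 0.0332) of the phenylalanine enzyme. FARSA held without any 1 library, and FARSB lost its call without hairpin 2 replicates 1 or 2, any hairpin 1 replicate or scramble replicate 3 (-1.09 to -0.65; up to 0.131).

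Of 13 genes that process hairpins or act in RNA interference, 1 was lower and 1 higher, close to the shares of all genes tested (5.62% and 5.86%). XPO5, which exports hairpin RNAs from the nucleus, fell to 48.6, 47.8 and 59.3 normalised CPM with hairpin 2, against 91.99, 80.3 and 103 with hairpin 1 and 95.1, 75.7 and 86.6 with scramble (log2 -0.82 ± 0.15, adjusted p = 0.00602). TNRC6B, a scaffold of the silencing complex, rose to 85.4, 101 and 81.9 with hairpin 2, against 47.1, 51.1 and 48.6 with hairpin 1 and 67.7, 68.4 and 56.4 with scramble (log2 0.87 ± 0.13, adjusted p = 0.0025). Both calls held without any 1 library. Few members passed in 5 other lists, where counts were no more than about the shares of all genes tested (5.86% higher, 5.62% lower). In oxidative phosphorylation 3 of 51 subunits were higher and 1 lower, the higher ones being NDUFA4 (0.59, adjusted p = 0.0381), NDUFS3 (0.42, adjusted p = 0.0372) and NDUFB10 (0.41, adjusted p = 0.0471) and the lower one ATP5G1 (-0.69, adjusted p = 0.0217). These 4 calls, with MT-CO3, 1 of 13 mitochondrial mRNAs (0.55 ± 0.15, adjusted p = 0.0366), the spliceosome gene SNRPC, 1 of 42 splicing factors (0.54 ± 0.14, adjusted p = 0.0335), GCLM, 1 of 16 NRF2 and iron genes (-1.16 ± 0.34, adjusted p = 0.0483), and RPPH1, the RNA of RNase P, 1 of 18 structured RNA features (-0.81 ± 0.22, adjusted p = 0.0394), were each lost without hairpin 2 replicate 1 and at least 1 other single library. Their adjusted p-values reached 0.118 to 0.197. The count of higher oxidative phosphorylation genes was 0 without hairpin 2 replicate 1, any 1 hairpin 1 replicate or scramble replicate 3.

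**Figure D5:**
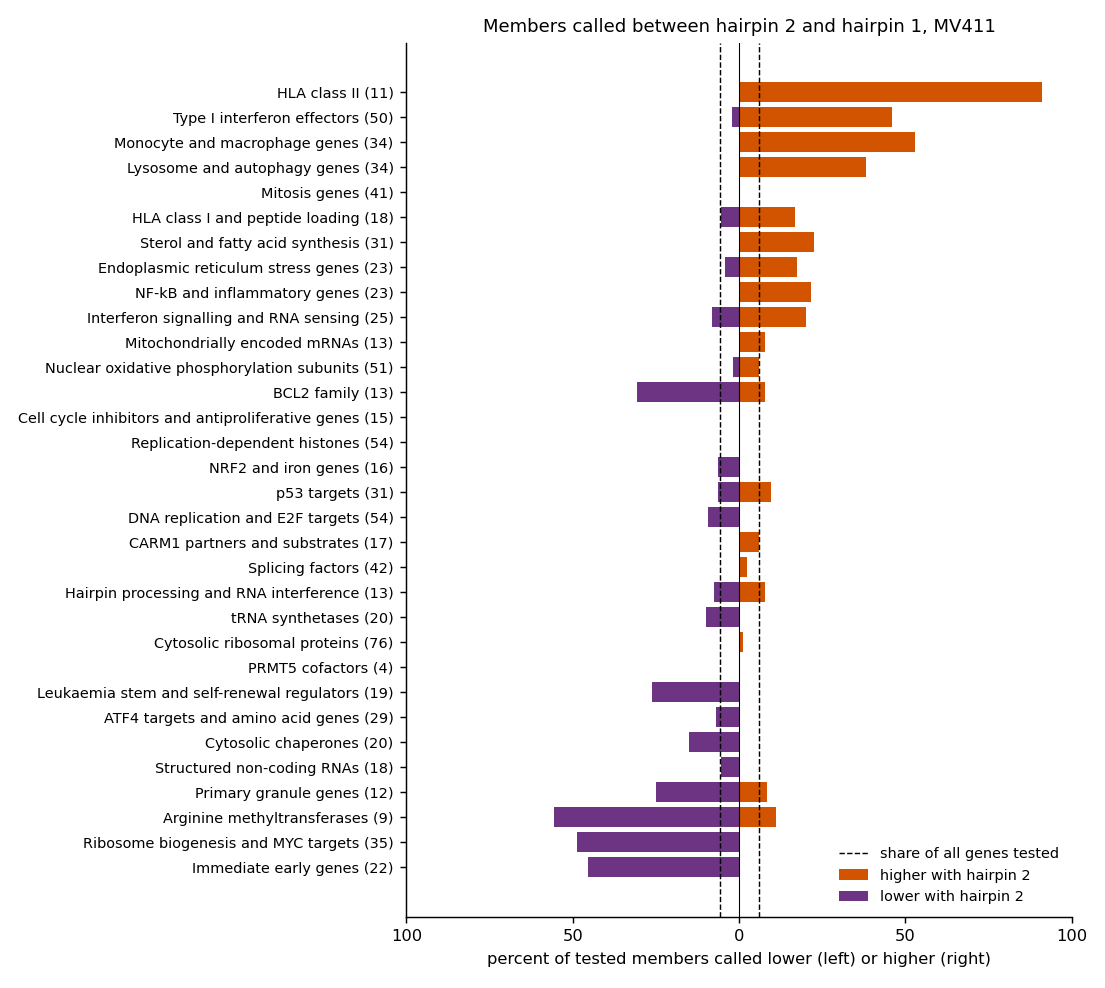
Bars give the percent of each list's tested members (number in brackets) that were called higher (orange, right) or lower (purple, left) with hairpin 2, ordered by the list's median log2 fold change; dashed lines mark the shares of all genes tested, 5.86% and 5.62%. HLA class II (10 of 11), monocyte (18 of 34) and interferon genes (23 of 50) stand out on the right, and ribosome biogenesis (17 of 35), immediate early (10 of 22) and arginine methyltransferase genes (5 of 9) on the left.

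Markers of further cell types were low in all groups. Summed over 9 markers of T and NK cells they came to 10.1 to 13.3 CPM with hairpin 2, 22.6 to 27.5 with hairpin 1 and 16.1 to 20.1 with scramble, with CD3D, CD3G and CD2 at 0 in all 9 libraries. The 10 erythroid markers came to 8.64 to 10.9 with hairpin 2, 5.11 to 7.02 with hairpin 1 and 10.1 to 11.7 with scramble, with HBG1 among those at 0. The 7 megakaryocyte markers came to 2.93 to 5.20 with hairpin 2, 2.92 to 6.49 with hairpin 1 and 6.29 to 9.45 with scramble, with PF4 at 0. The 8 epithelial and fibroblast markers came to 9.14 to 11.6 with hairpin 2, 14.0 to 15.4 with hairpin 1 and 13.0 to 16.2 with scramble, with COL3A1 and DCN at 0. Of these markers NKG7 (log2 -1.16) and KRT18 (-0.66) were called lower and KLF1 (1.95) higher. Their part in the results was not tested.

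The same hairpins in separate libraries of SKNO1 and MOLM13 allow the values to be set side by side. In SKNO1, where 1754 of 18430 genes (9.52%) passed between hairpin 2 and hairpin 1, CARM1 was lower with hairpin 2 by -1.45 ± 0.20 (adjusted p = 0.000957). Of the 1044 genes higher in MV411, 861 were tested there and 748 (86.9%) had the same sign, and of the 1002 lower genes 836 of 929 (90.0%) had it, against 66.4% of all genes tested in both lines. Passing in SKNO1 with the same sign were 264 of the 861 (30.7%) and 365 of the 929 (39.3%), against 8.43% of all genes tested in both lines. In MOLM13, CARM1 differed by -0.22 ± 0.30 and no gene of 17732 passed by edgeR (0%, against 335 genes or 1.89% at an unadjusted p under 0.05; no other tool was run there). MOLM13 libraries were uneven within groups, with CTSZ at 65.4 ± 53.6 normalised CPM with hairpin 2 and 56.7 ± 50.9 with hairpin 1 (SD). The summed leukaemia markers came to 4935, 2036 and 3634 CPM with hairpin 2. A lack of calls there thus does not show that the hairpins acted alike. The same sign was seen there for 638 of 929 higher genes (68.7%) and 759 of 970 lower genes (78.2%), against 60.1% of all genes.

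Group by group, SKNO1 resembled MV411 in some lists and went the other way in others. Against shares of all SKNO1 genes of 4.52% higher and 5% lower, 8 class II genes were higher with hairpin 2 and 0 lower, 22 interferon effectors were higher and 2 lower, and 16 ribosome biogenesis genes were lower and 0 higher. MYC had -0.79 ± 0.18 there (adjusted p = 0.0188), BSG -2.501 ± 0.19 (adjusted p = 3.83e-05), CTSZ 1.75 ± 0.17 (adjusted p = 0.000139) and EMID1 -0.28 ± 0.27 (adjusted p = 0.569). Sterol genes, higher in 7 of 31 in MV411, were lower in 14 and higher in 0 in SKNO1 (median -0.64), and immediate early genes were higher in 4 and lower in 2 (median 0.32). The differences between the lists themselves were not tested.

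The difference between hairpins was itself compared between lines in a fit of all 27 libraries. Against SKNO1, 64 of 21262 genes (0.301%) passed, 34 (0.16%) with a higher value in MV411 and 30 (0.141%) with a lower one. MVK, mevalonate kinase of the sterol pathway, had 0.28 in MV411 and -1.69 in SKNO1 (difference 1.97 ± 0.31; adjusted p = 0.00408). IER3, an immediate early gene, had -0.94 in MV411 and 1.34 in SKNO1 (-2.28 ± 0.30, adjusted p = 0.000834). BMP6, a secreted growth factor, had -0.85 in MV411 and 2.503 in SKNO1 (-3.35 ± 0.39, adjusted p = 0.000136). The call of IER3 within MV411 was lost without hairpin 2 replicates 1 or 3 or any hairpin 1 replicate (-1.15 to -0.80, adjusted p up to 0.118). In BMP6 and MVK the within-line change passed in SKNO1 and not in MV411. The count was 35 and 40 without MV411 hairpin 2 replicates 1 and 2, and 31, 41 and 34 without MV411 hairpin 1 replicates 1, 2 and 3.

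Against MOLM13, 20 of 21262 genes (0.0941%) passed, 10 of them (0.047%) higher in MV411 and 10 (0.047%) lower. ST3GAL6, a sialyltransferase, had 2.55 in MV411 and 0.07 in MOLM13 (difference 2.51 ± 0.31; adjusted p = 0.000399). In MV411 it stood at 21.6, 16.5 and 19.3 normalised CPM with hairpin 2, against 3.72, 3.72 and 2.34 with hairpin 1 and 4.70, 3.81 and 3.62 with scramble. ID1, an inhibitor of differentiation factors, had -3.41 in MV411 and -0.02 in MOLM13 (-3.35 ± 0.60, adjusted p = 0.0198), with 0.495, 0.814 and 0.237 in MV411 with hairpin 2, against 4.59, 4.84 and 6.65 with hairpin 1 and 0.81, 0.736 and 0.555 with scramble. ID1 was thus high with hairpin 1 alone, as SGK1, EGR1 and KLF2 were. The count was 2, 5 and 35 without MV411 hairpin 2 replicates 1, 2 and 3, 1 without MV411 hairpin 1 replicate 1 and 3 without its replicate 3, and 0 in a fit of the 12 hairpin libraries of the 2 lines alone.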

How the data were processed

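RNA of 27 libraries of 3 acute myeloid leukaemia lines was extracted with Trizol and RNeasy and made into TruSeq stranded total RNA libraries with Ribo-Zero depletion, per the labels' protocols. Reads were processed with STAR 2.5.3 and RSEM on GRCh38.p7, per the submitters' processing notes; the annotation and strand setting are not given in the sources used here. The authors deposited RSEM expected counts per gene, of which 30.4% of non-zero values were not whole (tolerance 1e-09). Expected counts assign reads shared by similar genes in fractions, so the values of near-copies are uncertain. These were rounded here to whole counts.

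The 9 MV411 libraries were fitted together with edgeR 4.0.16 in R 4.3.3 (TMM factors, filter at a minimum count of 10 and a minimum total of 15, quasi-likelihood F-test, Benjamini-Hochberg over all 17816 genes tested, threshold 0.05). The same was done within SKNO1 and MOLM13, and differences between lines came from a fit of all 27 libraries. Fold changes are hairpin 2 over hairpin 1, SE is the log2 fold change over the root of F, and levels are TMM-normalised CPM. Shares of counts were compared with exact two-sided permutation tests. The steps were tested on simulated data. In the MV411 contrast 35% of 2-fold and 86% of 4-fold changes were recovered, and 6.92% of calls were false. For differences between lines, 6% of 2-fold and 45% of 4-fold changes were recovered against SKNO1, with 7.27% of calls false. Against MOLM13 these were 9%, 51% and 4.76%. Most 2-fold differences between lines were thus missed in the simulations. Alternatives were other size factors (RLE, upper quartile), removal of mitochondrial rRNA and structured RNAs, no filter or a minimum count of 50, the 6 hairpin libraries alone, a replicate block, each library left out, limma-voom (limma 3.58.1) and DESeq2 1.42.0.

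The libraries compared and the 38 gene lists were chosen with earlier results of these data known. Named are the arginine methyltransferases, up to 12 genes a direction with the largest change among called genes with a mean log2 CPM of at least 2 and no overlap of the hairpins, up to 4 called members a direction of each list by smallest p (up to 2 where none was called), and up to 4 genes a direction of each difference between lines; exceptions are marked, and some genes that these rules name are not reported here. Genes were placed with GENCODE 29 on GRCh38, where 57388 of 57992 IDs matched. The hairpin sequences were not used here.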

Additional observations from a re-analysis of the deposited data

Results flagged for a closer look

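The difference between hairpin 2 and hairpin 1 differed between MV411 and SKNO1 in 64 genes by the test of that difference in edgeR's fit of all 27 libraries, and the genes below lead that list in each direction. Values are MV411 minus SKNO1 on the log2 scale, with SE. BMP6 had -3.35 ± 0.39 (adjusted p = 0.000136), with 0.256 ± 0.0459 CPM with hairpin 2 against 0.458 ± 0.0767 with hairpin 1 in MV411 and 14.0 ± 1.06 against 2.46 ± 0.807 in SKNO1 (SD, n = 3 each). IER3 had -2.28 ± 0.30 (adjusted p = 0.000834), the heat shock gene HSPA2 -2.88 ± 0.40 (adjusted p = 0.00126) and the pseudokinase gene TRIB1 -2.16 ± 0.31 (adjusted p = 0.00126). In all 4 the SKNO1 value was above 0 (0.73 to 2.503) and the MV411 value below it (-2.15 to -0.58). Only IER3 passed within both lines. BMP6 and TRIB1 did not pass in edgeR's fit of MV411 (adjusted p = 0.172 and 0.19), nor HSPA2 in that of SKNO1 (adjusted p = 0.0689). MVK had 1.97 ± 0.31 (adjusted p = 0.00408), with 7.46 ± 0.899 CPM with hairpin 2 against 6.12 ± 0.303 with hairpin 1 in MV411 and 6.01 ± 0.702 against 19.4 ± 2.59 in SKNO1. The nucleoside transporter SLC29A1 had 1.38 ± 0.21 (adjusted p = 0.0027), SUSD3 3.14 ± 0.51 (adjusted p = 0.00462) and the erythroid factor KLF1 2.72 ± 0.44 (adjusted p = 0.00459). SLC29A1 and SUSD3 had -0.08 and -0.01 in MV411, so that their difference lies in SKNO1, where SUSD3 was at 0.0317 CPM with hairpin 2 and 0.304 with hairpin 1.

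Against MOLM13, 20 genes differed by the same test. ST3GAL6 had 2.51 ± 0.31 (adjusted p = 0.000399), the splicing regulator RBM47 3.30 ± 0.55, FGD4 2.68 ± 0.47 and TMOD2 2.24 ± 0.39, while KLF2 had -2.52 ± 0.44, the amino acid carrier SLC38A5 -1.87 ± 0.33, the antisense RNA WT1-AS -2.91 ± 0.52 and ID1 -3.35 ± 0.60 (adjusted p = 0.0198 in each after ST3GAL6). In MOLM13 itself, where libraries were uneven within groups, none of them passed, with values of -0.44 to 0.66. CARM1 differed there by -0.22 ± 0.30 between the hairpins, against -1.02 ± 0.18 in MV411. The count of 20 came to 1 without MV411 hairpin 1 replicate 1, and in a fit of the 12 hairpin libraries of both lines none of these 8 passed (adjusted p 0.0798 to 0.297).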

How the results depend on the processing

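The count of called genes (2046, with 1044 higher and 1002 lower) stayed within 1.5 times under other size factors, removal of mitochondrial rRNA and structured RNAs, no filter, a minimum count of 50, the 6 hairpin libraries alone, limma-voom and DESeq2, at 1936 to 2772. With a replicate block it was 3516 (1729 higher, 1787 lower), and the block shared all 2046 calls. With 1 library left out it ran from 873 to 2105, with 461 to 1106 higher and 412 to 1064 lower. The replicate numbers were not taken as pairs in the main fit. Same-numbered libraries of the hairpins correlated at 0.0711, 0.3 and 0.32 in their deviations from the group means, the first under 0.1. Each nevertheless correlated best with its own number, and libraries of different numbers had -0.302 to -0.000769. The losses of calls given above are those of the fit without the block. The block raised the higher count of sterol genes to 12 and the lower counts of ribosome biogenesis genes to 27 and of chaperones to 9; it ended no call of a named gene. Oxidative phosphorylation genes (3 higher) came to 8 with the block, 7 with upper quartile factors, 5 with DESeq2 or at a minimum count of 50, and 1 in the 6 hairpin libraries. With no filter 7 endoplasmic reticulum genes were higher (against 4), and 6 granule genes (against 3) and 5 chaperones (against 3) lower. DESeq2 called 8 interferon signalling genes higher (against 5). The difference from SKNO1 (64 genes) came to 111 with the block, 146 in the 12 hairpin libraries of both lines and 31 to 55 with 1 MV411 library left out. The difference from MOLM13 (20 genes) came to 54 at a minimum count of 50, 58 with the block, 0 in the 12 hairpin libraries and 1 to 35 with 1 MV411 library left out. Of 123 calls followed within MV411 none changed sign, and 41, 10 and 17 were lost without hairpin 2 replicates 1, 2 and 3, 42, 36 and 37 without hairpin 1 replicates 1, 2 and 3, and 2, 2 and 13 without scramble replicates 1, 2 and 3. Other settings ended at most 5 each: upper quartile factors those of IER3, HSPB1, PRMT7, BIK and RPPH1, no filter those of IFITM2, PRMT1, MT-CO3, NDUFS3 and NDUFB10, the 6 hairpin libraries those of NDUFS3, BIK, RPPH1, NDUFB10 and GCLM, limma-voom those of RPPH1, PTPN3 and NDUFB10, and RLE factors that of GCLM. DESeq2 left CAMP without an adjusted p. The cause was not tested. Genes under the filter, at few counts a library, were not tested at this depth.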
